A study of Bos taurus with 8 samples.

Results

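The transcripts of 10 splicing regulators were followed in bovine embryonic stem cells (bESCs): the muscleblind-like factors MBNL1 and MBNL2, the epithelial splicing factors ESRP1 and ESRP2, RBFOX2, PTBP1, QKI, CELF1, SRSF2 and SON. They were chosen by name, as factors known to shift between pluripotent and differentiated cells, with earlier results of these data already known. All 10 had a row among the 32637 genes with counts, and all 10 passed the filter on low counts that left 15744 genes for testing. The data are RNA sequencing counts of 4 bESC lines of genotype XX, named A, C, D and E, each sequenced once on mouse embryonic fibroblasts (MEF) and once in feeder-free conditions on vitronectin, so that 8 libraries fall into 2 conditions of 4. All cultures were kept in 5% O2 in NBFR medium, which holds FGF2 and the WNT inhibitor IWR-1. The lines came from early or full blastocysts, and the records do not say which line came from which stage. Sampling took place between passages 15 and 17 on MEF and between passages 20 and 22 on vitronectin. The feeder-free samples descend from the MEF cultures, so passage, matrix and the presence of irradiated mouse feeder cells cannot be told apart here. The library titles write the medium as NBFRA in both conditions, whereas the methods describe Activin A as an addition for feeder-free culture.

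Alternative splicing joins different exons of one gene into different messages, and regulators of this kind bind short motifs in the transcript and favour or block the use of nearby exons. In pluripotent cells, MBNL proteins are known for working against the exon choices of embryonic stem cells, while ESRP proteins keep the exon choices of epithelial cells and PTBP1 represses many exons of neural genes. SRSF2 and SON act more broadly, SRSF2 as an SR protein that promotes exon inclusion and SON as a scaffold of nuclear speckles that helps the splicing of weak introns. The deposited counts are sums per gene, so they measure the transcripts of the regulators and not the exons that the regulators select. In bulk libraries, fewer cells that express a gene and less RNA per cell cannot be told apart.

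Total counts ranged from 44268717 to 54296425 on MEF and from 49671478 to 102351560 in feeder-free conditions, where the library of line D held about as many counts as any pair of the others. The smallest count of any of the 10 genes in any library was 550, for MBNL1. The labelled cell type was checked against 6 pluripotent cell markers (POU5F1, SOX2, NANOG, SALL4, LIN28A and LIN28B), which together held 4069 to 4361 CPM, counts scaled to the depth of each library, on MEF and 3558 to 3639 CPM in feeder-free conditions. All 6 had a log2 fold change below 0, with a median of -0.32, and 5 were lower in 4 of 4 lines. In the unpaired test described below 0 of the 6 were called. There 5 had an unadjusted P-value under 0.05 as lower, against 11.4 percent of all tested genes. SALL4 passed the adjusted P-value of that test (edgeR adjusted p = 0.0426). Its log2 fold change of -0.580 fell just short of the fold change threshold, 0.585 on that scale. With line as a replicate block 0 of the 6 were called. By the adjusted P-value alone in that fit SALL4, SOX2 and LIN28B passed as lower, 3 of 6 against 8.12 percent of all tested genes. A list of 14 fibroblast markers held 415 to 576 CPM on MEF and 262 to 1302 CPM in feeder-free conditions, and no marker was at 0 in all libraries. COL1A1 held 292 to 383 CPM on MEF and 115 to 1033 CPM in feeder-free conditions. Of the 13 fibroblast markers tested, 9 had a log2 fold change above 0, with a median of 0.52, and 0 were called in that unpaired test. There 2 had an unadjusted P-value under 0.05 as higher and 1 as lower, against 10.2 and 11.4 percent of all tested genes. With line as a replicate block, COL3A1 and POSTN were called higher, at log2 fold changes of 2.53 and 2.77, and COL1A2 lower, at -4.35. Over all tested genes that fit called 5.52 percent as higher and 4.53 percent as lower. These 3 markers are at low levels: COL3A1 had at most 1.57 CPM on MEF and at most 10.5 CPM in feeder-free conditions, POSTN at most 0.661 and 2.62 CPM, and COL1A2 at most 4.65 and 0.414 CPM. The part of feeder or fibroblast-like cells in the values below was not tested.

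None of the 10 regulators passed both thresholds of the study, an adjusted P-value (Benjamini-Hochberg) below 0.05 with at least a 1.5-fold difference, in edgeR's quasi-likelihood test between feeder-free bESCs and bESCs on MEF. Over all tested genes, 1.73 percent passed, which is 272 genes, and this count depends on single libraries: it was 490 with line A left out of the feeder-free cultures and 0 to 6 when any of the other 7 libraries was dropped. At an unadjusted P-value under 0.05 there were 4 of the 10 (CELF1, RBFOX2, ESRP2 and SON), all lower in feeder-free conditions, against 21.6 percent of all tested genes in either direction and 11.4 percent as lower. Since each line gave a library in both conditions, a paired fit, in which cell line is a replicate block, was made as well. DESeq2 and limma-voom, without the pairing, also passed 0 of the 10, against 8.37 percent of the 14482 genes to which DESeq2 gave an adjusted P-value and 1.45 percent of all tested genes for limma-voom. In the paired fit CELF1 alone passed both thresholds, as lower. This is 1 of 10 genes, against 4.53 percent of all genes as lower and 5.52 percent as higher, so the share called in either direction is about that of all genes. With the adjusted P-value alone, CELF1, RBFOX2 and SON passed as lower in the paired fit, 3 of 10 against 15.8 percent in either direction and 8.12 percent as lower.

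In direction, 7 of the 10 regulators (MBNL1, MBNL2, ESRP2, RBFOX2, QKI, CELF1 and SON) had lower values in feeder-free conditions in 4 of 4 lines, compared with 20.7 percent of all tested genes. ESRP1 and SRSF2 had higher values in 4 of 4 lines, compared with 20.2 percent of all tested genes, and PTBP1 in 3 of 4. These directions are those of TMM-scaled values. In line A the log2 ratios of MBNL1 and PTBP1 lay near 0, at -0.05 and -0.01. With counts divided by library totals alone, both genes were slightly higher in feeder-free conditions in that line. The 4 MEF and 4 feeder-free libraries did not overlap for 3 regulators, ESRP2, RBFOX2 and CELF1, each lower, against 14.6 percent of all tested genes in either direction and 8.36 percent as lower. The median log2 fold change over the 10 was -0.31, with a range of -0.59 to 0.30, and the median over all tested genes was 0.01. For the 6 pluripotent cell markers the median was -0.32.

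**Figure D1:**
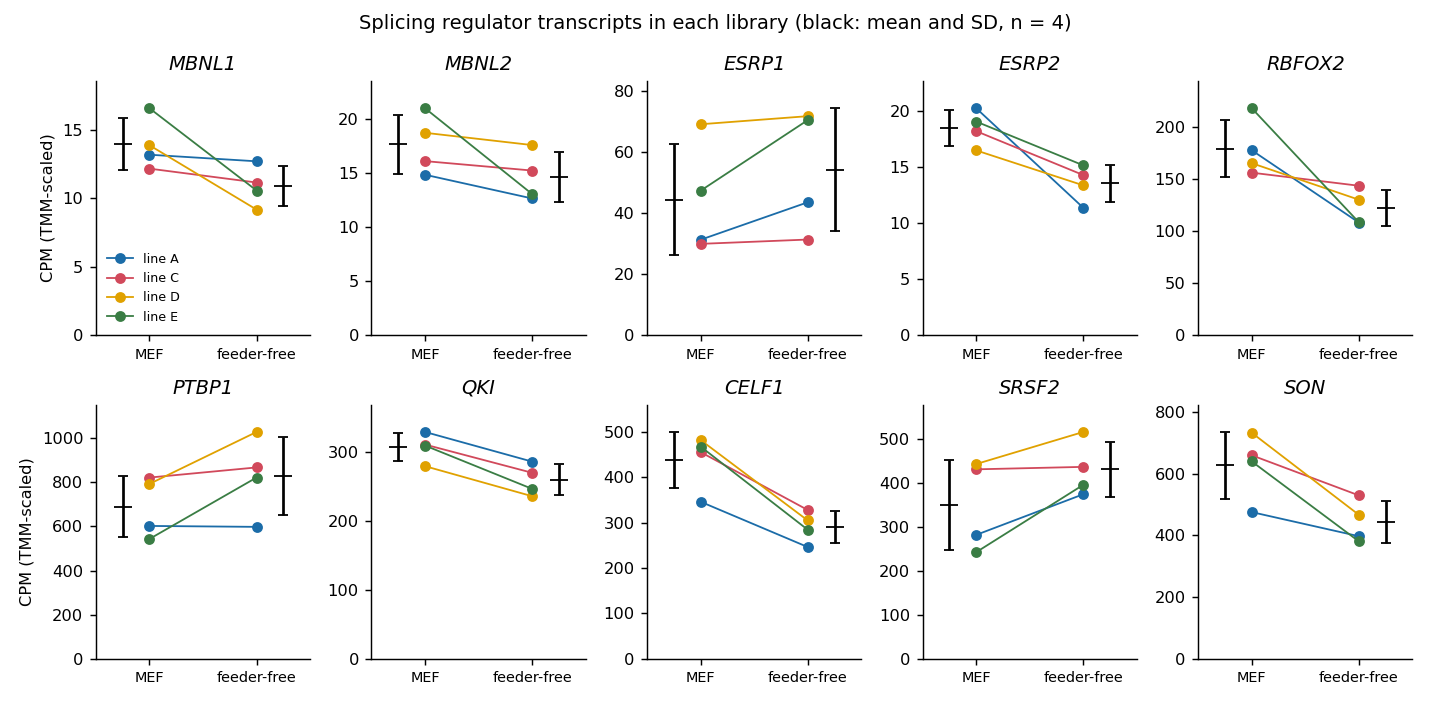
TMM-scaled CPM of each of the 10 splicing regulators in the 8 libraries, with coloured lines joining the MEF and feeder-free library of each bESC line and black bars giving the mean and SD of the 4 libraries of a condition. The lines slope downward in 4 of 4 bESC lines for MBNL1, MBNL2, ESRP2, RBFOX2, QKI, CELF1 and SON, and upward in 4 of 4 for ESRP1 and SRSF2.

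MBNL1 and MBNL2 are zinc finger proteins of one family that act on overlapping sets of exons and rise as many cell types differentiate. MBNL1 (chromosome 1 of ARS-UCD2.0, 115302493 to 115524952) had 13.2, 12.2, 13.9 and 16.6 CPM on MEF in lines A, C, D and E, and 12.7, 11.2, 9.19 and 10.6 CPM in feeder-free conditions. Lines A and C hardly differed between conditions, with log2 ratios of -0.05 and -0.13, while lines D and E were lower at -0.60 and -0.65. Line A without feeders lay above line C on MEF, so the conditions overlapped. The means were 13.97 ± 1.89 CPM for MEF and 10.9 ± 1.46 CPM for feeder-free cultures (SD, n = 4 each). The log2 fold change of MBNL1 was -0.36 (standard error, SE, 0.17, 95% interval -0.73 to 0.02, edgeR adjusted p = 0.252).

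MBNL2 (chromosome 12, 74410787 to 74572581) had 14.8, 16.1, 18.7 and 21.0 CPM on MEF in lines A, C, D and E and 12.6, 15.2, 17.6 and 13.0 CPM in feeder-free conditions. Here line E carried most of the difference, with a log2 ratio of -0.68, against -0.23, -0.08 and -0.09 in lines A, C and D. The conditions overlapped. MBNL2 had a log2 fold change of -0.27 (SE 0.17, 95% interval -0.66 to 0.12, edgeR adjusted p = 0.407). The balance between the pair, taken as the log2 ratio of MBNL1 to MBNL2, moved by -0.08 ± 0.30 (SD, n = 4 lines), upward in 2 lines and downward in 2. The third gene of the family, MBNL3, which was listed with the other regulators, had the largest difference of the 3. It had 73.0, 49.9, 51.7 and 50.9 CPM on MEF in lines A, C, D and E and 37.8, 24.6, 31.1 and 19.5 CPM in feeder-free conditions, with every feeder-free library below every MEF library. The log2 fold change of MBNL3 was -0.997 (SE 0.22, edgeR adjusted p = 0.0509), short of the threshold without the pairing, and MBNL3 fell by 1.02 on the log2 scale once line was taken as a block (edgeR adjusted p = 0.00209).

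CELF1, a protein that binds GU-rich sequence and often opposes MBNL proteins at the same exons, had the largest fold change of the 10. CELF1 (chromosome 15, 77280292 to 77368002) had 346, 455, 482 and 467 CPM on MEF in lines A, C, D and E and 246, 328, 305 and 284 CPM in feeder-free conditions. Every feeder-free library lay below every MEF library, with line A lowest in both conditions. The 4 log2 ratios lay close together, at -0.49, -0.47, -0.66 and -0.72 in lines A, C, D and E. The means were 438 ± 62.1 CPM for MEF and 291 ± 34.6 CPM for feeder-free cultures (SD, n = 4 each). Without the pairing the log2 fold change of CELF1 was -0.59 (SE 0.15, 95% interval -0.92 to -0.26, edgeR adjusted p = 0.0655). With line as a block CELF1 fell by 0.59 on the log2 scale (SE 0.10, edgeR adjusted p = 0.00695), which is only just past the fold change threshold. Without line D or line E the paired log2 fold change was -0.56 and -0.53, under RLE size factors -0.57 and without scaling -0.55, and CELF1 then missed the fold change threshold while its adjusted p stayed under 0.05. The log2 ratio of CELF1 to MBNL1 moved by -0.23 ± 0.19 (SD, n = 4 lines) and was lower in 4 of 4 lines.

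RBFOX2 is a regulator with a well-defined RNA motif that promotes or blocks exons according to its position beside them, and it is expressed in embryonic stem cells and in many differentiated tissues. RBFOX2 (chromosome 5, 73895772 to 74189001) had 177, 156, 165 and 218 CPM on MEF in lines A, C, D and E and 108, 143, 129.9 and 108 CPM in feeder-free conditions. The conditions did not overlap, but the lines differed in how far apart they were, from a log2 ratio of -0.12 in line C to -1.01 in line E. The log2 fold change of RBFOX2 was -0.55 (SE 0.15, 95% interval -0.88 to -0.21, edgeR adjusted p = 0.0793), and pairing by line (replicate block) gave an edgeR adjusted p of 0.0341 with the fold change threshold not reached. Without line A, D or E that paired adjusted p was 0.0887, 0.0751 and 0.0936 by edgeR, and without line C RBFOX2 passed both thresholds, at -0.68.

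ESRP1 and ESRP2 are close relatives that maintain the epithelial forms of genes such as FGFR2, CD44 and CTNND1, and both are known to be repressed as epithelial cells become mesenchymal. In these libraries the pair did not move together. ESRP1 (chromosome 14, 69602149 to 69660814) had 31.3, 29.9, 69.1 and 47.4 CPM on MEF in lines A, C, D and E and 43.6, 31.3, 71.8 and 70.5 CPM in feeder-free conditions. It was the most line-dependent of the 10, with line D above lines A and C by more than the conditions differed in any line, and lines C and D near their MEF values at log2 ratios of 0.07 and 0.05. ESRP1 had a log2 fold change of 0.29 without the pairing (SE 0.33, 95% interval -0.46 to 1.04, edgeR adjusted p = 0.676). With line as a block its 95% interval was 0.003 to 0.58, and the edgeR adjusted p was 0.151.

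ESRP2 (chromosome 18, 35608632 to 35618466) had 20.2, 18.2, 16.5 and 19.0 CPM on MEF in lines A, C, D and E and 11.4, 14.3, 13.4 and 15.1 CPM in feeder-free conditions. Every feeder-free library lay below every MEF library, with line A highest on MEF and lowest in feeder-free conditions. The log2 fold change of ESRP2 was -0.45 (SE 0.15, 95% interval -0.78 to -0.12, edgeR adjusted p = 0.118). ESRP2 overlaps NFATC3 in the annotation, which had 9829 counts in all libraries against 6962 for ESRP2 and a log2 fold change of -0.47. The strand setting of the counting is not given in the sources used here, so the value of ESRP2 is less certain. Without feeders the log2 ratio of ESRP1 to ESRP2 was larger in 4 of 4 lines, by 1.31, 0.42, 0.36 and 0.90 in lines A, C, D and E, and this difference was not tested.

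PTBP1 binds pyrimidine-rich stretches and represses exons, among them an exon whose skipping lowers its neural relative PTBP2. PTBP1 (chromosome 7, 43367474 to 43378191) had 602, 821, 793 and 543 CPM on MEF in lines A, C, D and E and 598, 867, 1028 and 822 CPM in feeder-free conditions. The conditions overlapped, with log2 ratios of -0.01 and 0.08 in lines A and C and 0.38 and 0.60 in lines D and E. PTBP1 thus had a log2 fold change of 0.26 (SE 0.20, 95% interval -0.19 to 0.72, edgeR adjusted p = 0.497). PTBP2 averaged 34.9 ± 6.52 CPM with feeders and 34.3 ± 10.01 CPM without (SD, n = 4 each), a log2 difference of -0.02 (edgeR adjusted p = 0.968), and the ratio of PTBP1 to PTBP2 was higher in 3 of 4 lines. PTBP1 overlaps PLPPR3, which had 11961 counts against 356432 for PTBP1.

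SRSF2 is an SR protein, a class with an RNA-binding domain and a tail rich in arginine and serine, and it is known for acting on MBD2 splicing in pluripotent cells. SRSF2 (chromosome 19, 55043351 to 55046566) had 282, 431, 443 and 242 CPM on MEF in lines A, C, D and E and 374, 436, 516 and 395 CPM in feeder-free conditions. As for PTBP1, lines A and E were low on MEF and lines C and D high, and the conditions overlapped. Line E had the largest log2 ratio, 0.71, and line C the smallest, 0.02. The log2 fold change of SRSF2 without the pairing was 0.30 (SE 0.21, 95% interval -0.18 to 0.78, edgeR adjusted p = 0.467). With line as a block it was 0.34 (95% interval 0.06 to 0.62, edgeR adjusted p = 0.0948). SRSF2 overlaps METTL23, which had 1477 counts against 182716.

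SON (chromosome 1, 1954072 to 1985184), which supports the splicing of pluripotency transcripts in human embryonic stem cells, had 476, 660.1, 733 and 640.1 CPM on MEF in lines A, C, D and E and 398, 530.0, 467 and 381 CPM in feeder-free conditions. The feeder-free library of line C lay above the MEF library of line A, so the conditions overlapped, although each line was lower without feeders, by log2 ratios of -0.26 in line A to -0.75 in line E. The log2 fold change of SON was -0.50 (SE 0.17, 95% interval -0.88 to -0.12, edgeR adjusted p = 0.130), and pairing by line (replicate block) gave an edgeR adjusted p of 0.0223. Without line C, D or E that paired adjusted p was 0.0671, 0.125 and 0.0679 by edgeR.

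QKI, a regulator of the STAR family that is high in mesenchymal cells and is known for promoting circular RNA, varied least of the 10 on the log2 scale. QKI (chromosome 9, 98820543 to 98980967) had 329, 310.5, 279 and 309 CPM on MEF in lines A, C, D and E and 286, 269.6, 236 and 246 CPM in feeder-free conditions. The lines stood in the order A, C, E and D in both conditions, and the 4 log2 ratios, from -0.20 to -0.33, were the closest together of all 10 genes. Line A without feeders lay above line D on MEF, so the conditions overlapped. For QKI the log2 fold change without the pairing was -0.24 (SE 0.11, 95% interval -0.50 to 0.02, edgeR adjusted p = 0.261). With line as a block the 95% interval of QKI was -0.46 to -0.03, and the edgeR adjusted p was 0.114.

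**Figure D2:**
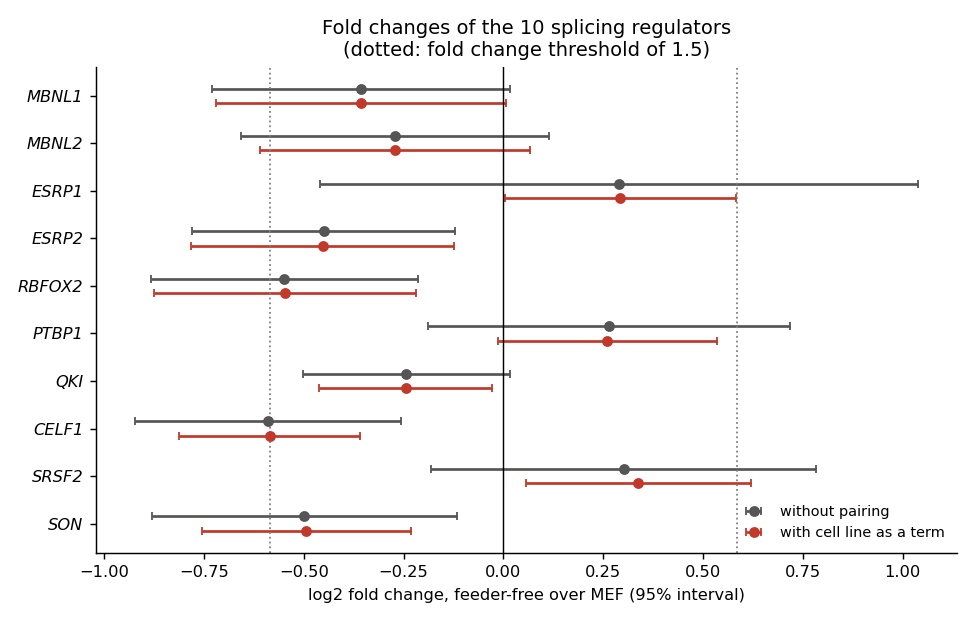
Log2 fold change of each splicing regulator, feeder-free over MEF, with its 95% interval from edgeR's quasi-likelihood fit without pairing (grey) and with cell line as a term (red), and dotted lines at the fold change threshold of 1.5. In the paired fit the interval of ESRP1 narrows from -0.46 to 1.04 down to 0.00 to 0.58, and CELF1 lies at the lower dotted line in both fits.

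How far each regulator followed the culture condition and how far the cell line was described by splitting the sum of squares of log2 CPM over the 8 libraries, with 1 contrast for condition and 4 lines. Condition took 74.2 percent for CELF1, 74.2 percent for ESRP2, 70.1 percent for RBFOX2, 61.1 percent for QKI, 57.6 percent for SON and 53.5 percent for MBNL1, against a median of 18.8 percent over all tested genes. Cell line took 86.8 percent for ESRP1, 64.8 percent for PTBP1 and 61.4 percent for SRSF2, against a median of 49.5 percent over all tested genes. MBNL2 was split between line (39.1 percent) and condition (33.5 percent). The line means of ESRP1 spanned 1.20 on the log2 scale, in the order D, E, A and C, and those of RBFOX2 only 0.15. The 3 regulators with higher mean values in feeder-free conditions, ESRP1, PTBP1 and SRSF2, were also those whose line means spanned most.

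**Figure D3:**
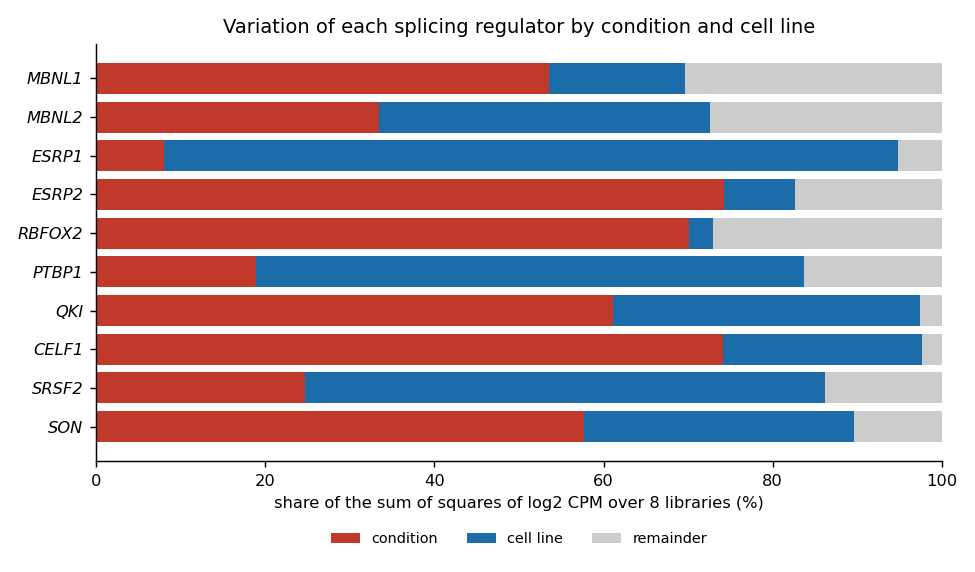
Share of the sum of squares of log2 CPM of each splicing regulator that lies between conditions (red), between cell lines (blue) and in the remainder (grey), over 8 libraries. Condition takes 74.2 percent for CELF1 and 8.01 percent for ESRP1, where cell line takes 86.8 percent.

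Gene span, the distance from start to end in the annotation, moved with the fold change. Among 15679 tested genes with a span, the median log2 fold change was 0.10 in 4536 genes under 10 kb, 0.01 in 6465 genes of 10 to 50 kb, -0.07 in 3146 genes of 50 to 150 kb and -0.16 in 1532 genes over 150 kb. MBNL1, MBNL2, RBFOX2 and QKI belong to the last class, CELF1 and ESRP1 to the third, PTBP1 and SON to the second, and SRSF2 and ESRP2 to the first. The part of span in these values was not tested.

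Other splicing genes were taken as lists, to set the 10 beside their wider machinery. Of 34 other sequence-specific regulators, 30 were tested, with a median log2 fold change of -0.22. None passed without the pairing, where 2 had an unadjusted P-value under 0.05 as higher and 3 as lower, against 10.2 and 11.4 percent of all tested genes. With line as a block 2 were called higher and 4 lower, against 5.52 percent of all genes as higher and 4.53 percent as lower. Besides MBNL3, the neural factors NOVA1 and ELAVL3 fell in that fit by 0.82 and 0.85 on the log2 scale, with lower values in 4 of 4 lines. RBM47 and RBM20 rose in the paired fit, at 1.06 and 0.83. RBM47, a factor of epithelial and endodermal tissue, had 5.38, 10.3, 26.0 and 8.06 CPM on MEF in lines A, C, D and E and 9.41, 23.2, 55.1 and 17.8 CPM in feeder-free conditions, so that line D was highest in both, as it was for ESRP1. PTBP3, the sixth gene called and named because it is a relative of PTBP1, had 10.7, 27.4, 45.5 and 14.04 CPM on MEF and 3.23, 17.0, 37.8 and 5.02 CPM in feeder-free conditions, a spread between lines that exceeded the difference between conditions, and its paired call was lost without any one of 3 of the 4 lines.

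Among SR proteins and SR-like factors, 14 of 15 were tested, with a median log2 fold change of 0.14, and 0 passed both thresholds in either fit of edgeR, while 3 had an unadjusted P-value under 0.05 as higher and 1 as lower, against the same 10.2 and 11.4 percent of all genes. With the adjusted P-value alone in the paired fit, which 7.67 percent of all genes passed as higher and 8.12 percent as lower, SRSF6 and SRSF7 passed as higher and SRRM2 as lower, named after their values were seen, at log2 fold changes of 0.56, 0.41 and -0.43. All 20 hnRNP genes, which code for abundant RNA-binding proteins that often oppose SR proteins, were tested, with a median of -0.13. None passed without the pairing, where 7 had an unadjusted P-value under 0.05 as lower and 1 as higher, against 11.4 and 10.2 percent of all tested genes. HNRNPH3 alone passed both thresholds in the paired fit, at -0.64, which is 1 of 20 against 4.53 percent of all genes as lower. In that fit 6 hnRNP genes passed the adjusted P-value alone, all lower, compared with the 8.12 percent of all genes. The 35 genes of the core spliceosome, which carries out the splicing reaction, had a median of 0.15. None passed without the pairing, where 3 had an unadjusted P-value under 0.05 in each direction, against 10.2 percent of all genes as higher and 11.4 percent as lower. In the paired fit SNRNP200, the helicase that unwinds the U4/U6 duplex, fell at -0.64, and SF3B5, a subunit of the U2 snRNP, rose at 0.63. These are 1 of 35 in each direction, against 4.53 percent of all genes as lower and 5.52 percent as higher.

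Of 10 kinases and phosphatases that act on SR proteins, 9 were tested, and DYRK1A alone was called, against 1.73 percent of all tested genes. DYRK1A had 116, 110.3, 137 and 135 CPM on MEF in lines A, C, D and E and 78.3, 83.3, 84.3 and 80.1 CPM in feeder-free conditions, with no overlap. It fell with a log2 fold change of -0.61 (SE 0.11, edgeR adjusted p = 0.0377), and the median over the 9 was -0.15. DYRK1A stayed called when line A was left out of the feeder-free libraries, and was not called without any other library, where edgeR's adjusted p was 0.0731 to 0.123 and at most 6 genes of all those tested were called.

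Genes whose exon choice is known to depend on the 10 regulators were listed for their total transcript level, and 14 of 15 were tested. The median was -0.28, and FOXP1 alone was called without the pairing, against 1.73 percent of all tested genes. FOXP1, a transcription factor with an exon choice specific to embryonic stem cells that MBNL proteins oppose, had 46.7, 38.6, 38.4 and 45.6 CPM on MEF in lines A, C, D and E and 25.9, 18.6, 17.4 and 17.3 CPM in feeder-free conditions. Every feeder-free library lay below every MEF library. FOXP1 fell with a log2 fold change of -1.10 (SE 0.16, edgeR adjusted p = 0.0331). It stayed called when line A was left out of the feeder-free libraries, and without any other library edgeR's adjusted p was 0.0703 to 0.116, at log2 fold changes of -1.03 to -1.14, in fits that again called at most 6 genes in all. In the paired fit FOXP1 was again the one gene of the list called, against 4.53 percent of all genes as lower, and it was called without each of the 4 lines. By the adjusted P-value alone in that fit, 6 of the 14 passed as lower and 1 as higher, against 8.12 and 7.67 percent of all genes. PKM, whose exclusive exons PTBP1 helps to choose, averaged 4824 ± 80.6 CPM with feeders and 3381 ± 247 CPM without (SD, n = 4 each), a log2 difference of -0.51 (edgeR adjusted p = 0.0613). With line as a block the edgeR adjusted p of PKM was 0.0107, at a log2 fold change of -0.52, short of the fold change threshold. PKM was named beside PTBP1 after its values were seen.

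**Figure D4:**
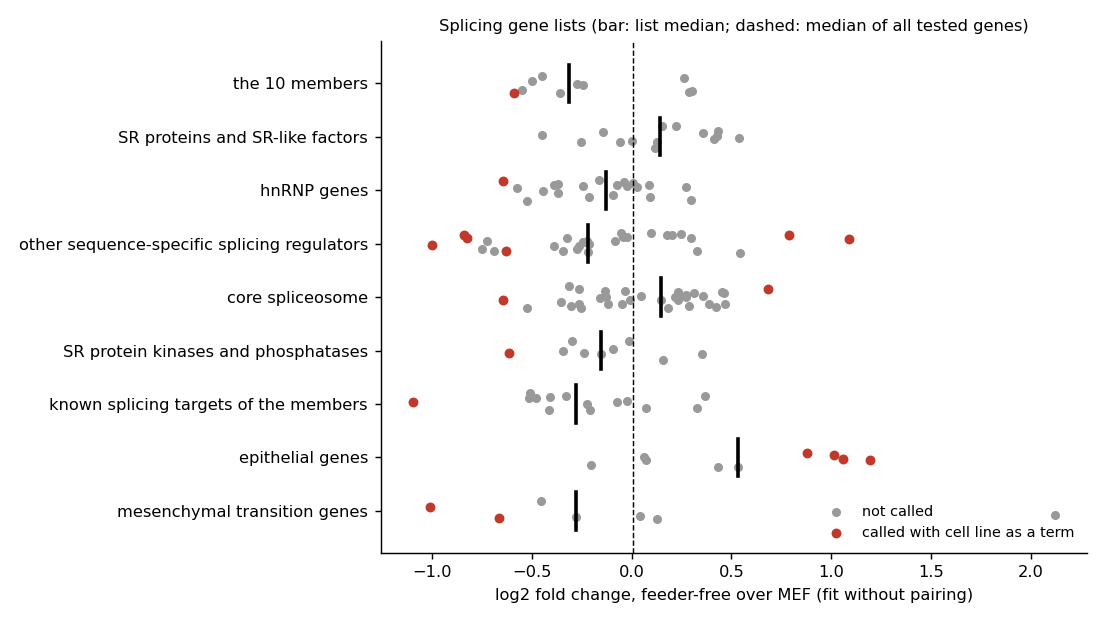
Log2 fold change, feeder-free over MEF, of each tested gene of the splicing lists and of the epithelial and mesenchymal transition lists, from edgeR's fit without pairing, with red points for genes called in the paired fit, a bar at each list median and a dashed line at the median of all tested genes, 0.01. Among the lists shown, the medians run from -0.31 for the 10 splicing regulators to 0.53 for the epithelial genes, and the SR proteins and the core spliceosome lie above 0. The pluripotent cell markers, with a median of -0.32, and the fibroblast markers are not shown.

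Because ESRP1, ESRP2, RBFOX2 and QKI are tied to the change between epithelial and mesenchymal states, lists of both states were set beside them. Of 10 epithelial genes, 9 were tested, with a median log2 fold change of 0.53 and 8 above 0. None passed without the pairing, where 5 had an unadjusted P-value under 0.05 as higher, and 4 were called higher with line as a block: the claudins CLDN6 and CLDN7 and the keratins KRT18 and KRT8, at log2 fold changes of 1.03, 1.10, 0.98 and 0.74. The shares of all genes called higher and lower in that fit were 5.52 and 4.53 percent. At the unadjusted P-value without the pairing they were 10.2 and 11.4 percent. The adhesion gene CDH1, named after its values were seen, had 191, 239, 465 and 179 CPM on MEF in lines A, C, D and E and 203, 283, 409 and 224 CPM in feeder-free conditions, so that line D was again highest. Of 8 mesenchymal transition genes, 7 were tested, with a median of -0.28, 3 above 0 and 4 below. None passed without the pairing, where 1 had an unadjusted P-value under 0.05 in each direction. In the paired fit ZEB1 and ZEB2, transcription factors known to repress ESRP genes, fell at log2 fold changes of -0.995 and -0.68. SNAI2 went the other way in that fit, at 2.14 (edgeR adjusted p = 0.0522), with means of 0.125 CPM on MEF and 0.554 CPM in feeder-free conditions. VIM and SNAI1 had higher values in feeder-free conditions in 3 of 4 lines, at paired log2 fold changes of 0.11 and 0.095 (edgeR adjusted p = 0.800 and 0.746). TWIST1 was lower in 4 of 4 lines, at -0.50 in the paired fit (edgeR adjusted p = 0.0790). CDH2 was higher in only 1 of 4, at -0.28 (edgeR adjusted p = 0.213). ZEB1 had 34.8, 27.0, 19.1 and 32.6 CPM on MEF in lines A, C, D and E and 15.0, 17.2, 13.8 and 10.3 CPM in feeder-free conditions. ZEB1 was lowest in line D on MEF and in line E in feeder-free conditions, while ESRP1 was highest in line D in both. ESRP2 was lower in feeder-free conditions in 4 of 4 lines, as ZEB1 and ZEB2 were. A link between these genes was not tested. Without the pairing, DESeq2 called HNRNPH3, ELAVL3, NOVA1, MBNL3, SNRNP200 and ZEB1 as lower and KRT18, CLDN7 and CLDN6 as higher from the lists in which edgeR called 0, and limma-voom called none from them. DESeq2 also called the fibroblast markers COL3A1 and LUM as higher and COL1A2 as lower. Of the 17 genes called in the paired fit from the splicing, epithelial and mesenchymal transition lists, beside CELF1 and the 3 fibroblast markers, 8 were also called without each of the 4 lines: CLDN6, CLDN7, ELAVL3, FOXP1, MBNL3, NOVA1, RBM47 and ZEB1.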

How the data were processed

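RNA sequencing of 4 bESC lines in 5% O2, on MEF and feeder-free, gave 8 libraries. The authors trimmed reads with Trimmomatic, aligned them to ARS-UCD2.0 with STAR, removed optical duplicates with Picard and alignments with mapping quality under 30 with samtools, and deposited raw counts per gene from featureCounts (Subread 1.6.2 in the submitters' processing notes). The methods also describe subtracting bovine-aligned reads found in a MEF-only library. That library was not analysed here, and the strand setting is not given in the sources used here.

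The table lists 32640 genes, of which 3 with empty cells were dropped, and the remaining counts were used as deposited. edgeR 4.0.16 in R 4.3.3 (filterByExpr, TMM, glmQLFit, glmQLFTest) was fitted on condition alone, and P-values were adjusted over 15744 genes (Benjamini-Hochberg). The methods name edgeR, TMM and no batch correction, but not the model. CPM values in single libraries are TMM-scaled, and sums over marker lists are not. Log2 CPM used a prior count of 2. Standard errors and 95% intervals were derived from the F statistic. The fits were tested on simulated counts. Each of the 4 lines gave 1 library per condition. P-values of the fit on condition alone set the difference against the spread of libraries within conditions. Those of the paired fit set it against the spread left once differences between lines are removed.

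The line letter names the same cell line in both conditions. Deviations from the condition mean correlated at 0.42 to 0.66 within lines and at -0.52 to 0.25 between lines, so a paired fit (line as replicate block) was made beside the main one. Replicates differed by more than sampling noise, since the chi-square per degree of freedom was at least 40.8 over the 12 pairs within conditions.

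The 10 genes and the lists were chosen with earlier results of these data known. Named genes were the 10 members, up to 5 genes per list called in either fit in order of adjusted P-value, and for MBNL1, MBNL2 and ESRP1 the 3 genes of most similar pattern. The alternatives were DESeq2 1.42.0, limma-voom 3.58.1, the replicate block, no fold change threshold and each library left out, as well as RLE size factors, no scaling and other filters on low counts. Coordinates and spans are from the RefSeq gene table of ARS-UCD2.0, in which all 10 genes were found. Sequences and transcript lengths were not used here, so levels are not compared between genes.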

Additional observations from a re-analysis of the deposited data

Results flagged for a closer look

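Of 22 sets of 4 libraries examined (the 10 regulators and the total count, in each condition), 2 had 1 library apart from the rest, and chance gives about 1.1. The rule was a Dixon ratio, the gap to the next library over the full range, with a limit of 0.829. CELF1 on MEF only just reached this limit, at 0.829. It was lowest in line A, at 8.43 log2 CPM, while lines C, D and E lay between 8.83 and 8.91. Line A was also the lowest for CELF1 without feeders. The total count of line D in feeder-free conditions was 102351560, and the remaining feeder-free totals lay between 49671478 and 51320214. With this library thinned to the median total of the rest of its condition, a setting chosen after seeing the data, 0 of the 10 regulators passed without the pairing and 1, CELF1, with it.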

How the results depend on the processing

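Each of the 10 regulators kept the direction of its fold change under all 15 alternatives tried for it. The number past both thresholds was 0 and was 0 also under RLE size factors, no scaling, the other filters, DESeq2, limma-voom, no fold change threshold and with any one library left out (0 to 0). The last of these says little about stability, because 7 of the 8 such fits called at most 6 genes in all, and the fit that dropped line A from the feeder-free side called 490. Pairing by line (replicate block) gave 1 (CELF1). Settings added after seeing the data gave 3 with the replicate block and no fold change threshold, 1 with the deepest library thinned and the replicate block, 1 in the paired fit without line A, 2 without line C, and 0 without line D or E, under RLE size factors or without scaling. Over all tested genes, the paired fits called 1651 without line A, 1057 without line C, 742 without line D and 1159 without line E. They called 1586 under RLE size factors, 1608 without scaling, 1579 with the thinned library and 2486 with no fold change threshold. In the paired fits without line D or E, or with other scaling, the log2 fold change of CELF1 lay just under the fold change threshold. With no fold change threshold RBFOX2 and SON were added, whose paired log2 fold changes of -0.55 and -0.49 lay under that threshold. Without line C RBFOX2 was added, at -0.68. What makes the fit without line C and the other settings differ was not tested. By adjusted P-value alone DESeq2 also passed CELF1, RBFOX2 and ESRP2, at 0.00562, 0.0192 and 0.0349, each under the fold change threshold. The share of all genes that passed DESeq2 by adjusted P-value alone was not counted, so these members cannot be set against it. At both thresholds DESeq2 called 8.37 percent of its genes, against 1.73 percent in edgeR's test without pairing. Without any one library, log2 fold changes stayed between -0.69 and -0.52 for CELF1, -0.63 and -0.44 for RBFOX2, -0.44 and -0.27 for MBNL1, -0.37 and -0.18 for MBNL2, 0.13 and 0.59 for ESRP1, 0.14 and 0.39 for PTBP1, and 0.16 and 0.43 for SRSF2. Counts of 550 or more per library leave the spread between lines, not counting error, as the limit.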

Other observations

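Genes whose pattern over the 8 libraries was most like that of MBNL1, by the root mean square difference of log2 CPM centred on each gene's mean, were ABI2, RBM33 and ZNF154, at 0.047, 0.052 and 0.055, against 0.24 for MBNL1 about its own mean. For MBNL2 they were ACBD3, TBCEL and DENND5B, at 0.068, 0.069 and 0.074, against 0.23. For ESRP1, LOC788414, SLC30A3 and EPHX2 differed from it by 0.14, 0.16 and 0.19, against 0.52 for ESRP1 about its own mean, and the first 2 had means under 2 CPM in both conditions. EPHX2, an epoxide hydrolase, averaged 30.1 ± 9.94 CPM with feeders and 37.9 ± 12.5 CPM without (SD, n = 4 each). None of these 9 genes passed both thresholds in either fit of edgeR. They were chosen for patterns close to those of 3 genes that did not pass, so this adds little.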
